A study of Mus musculus with 9 samples.

Results

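Primary cells of the inguinal white fat depot of mice (labelled wild type C57) were taken through adipocyte differentiation with sodium alginate, a polysaccharide salt of brown algae, at 0, 50 or 100 µM, and RNA of 3 libraries per dose was sequenced. The shape of the dose response is described here, gene by gene, as the distance of the 50 µM libraries from the midpoint between 0 and 100 µM. It was computed as the mean of log2(FPKM + 1) at 50 µM minus the average of the means at 0 and at 100 µM, where FPKM is fragments per kilobase of gene, scaled to library depth. A gene entered the test if 3 or more of the 9 libraries held it at 1 FPKM or above, which left 12635 of the 41761 genes in the table. Per the treatment protocol, cells at every dose, 0 µM included, received 1 µg/ml of insulin, 1 µM of dexamethasone, 0.5 mM of IBMX and 1 µM of rosiglitazone, a drug that activates the nuclear receptor PPARγ. The design text lists the same mix without rosiglitazone, so whether the drug was present is not settled by the labels. The titles of the 100 µM libraries read 50 µM, and the dose used here is that of their treatment label and library name. The molar mass behind a µM dose of this polymer is not stated, so the doses are read as ratios only. Titles give day 6 and the protocol gives day 7 for collection. Nothing in the labels ties the 3 libraries of a dose to separate cultures or animals, so the spread behind every p-value is that among libraries and could be technical.

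During adipogenesis, stromal progenitors leave the cell cycle, take down their matrix and stress fibres, and switch on a lipid programme under C/EBP factors and PPARγ. Mitochondrial genes of fuel oxidation are induced along with lipid storage genes in the same process. In a graded treatment, a gene that moves in proportion to dose lies at the midpoint at the middle dose, whereas a gene that moves late, early or in both directions lies off it.

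The libraries held 14019672 to 17094467 reads, rebuilt from the deposited values. The titles name the cells adipose-derived stem cells in white differentiation. Markers of mature white adipocytes (20 genes) summed to between 7811 and 8081 FPKM at 0 µM, between 8515 and 8955 at 50 µM and between 11851 and 12571 at 100 µM. RNA of adipocyte genes was thus present at every dose. Markers of stromal progenitors (20 genes) summed to 1504 to 1576, 1345 to 1493 and 958 to 1077 FPKM at the same doses. Whether separate cells carried the progenitor and the adipocyte markers was not tested. In bulk RNA, fewer cells of a type and less RNA per cell cannot be told apart. Libraries of a dose differed unequally. Replicate 3 at 50 µM differed from replicates 1 and 2 by a chi-square per gene of 7.39 and 7.85, against 3.65 between those 2. Replicates 1 and 3 at 100 µM differed by 7.08, and the other pairs within a dose by 3.39 to 5.31. Replicate 3 at 50 µM also gave 3.29% of its reads to cytosolic ribosomal protein genes, against 2.84% and 2.77%.

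Most genes that differed between 0 and 100 µM were still nearer to the untreated level at 50 µM. By limma with Benjamini-Hochberg adjustment over the 12635 genes and a threshold of 0.05, 2314 genes (18.3%) were higher and 1965 (15.6%) lower at 100 µM than at 0 µM. Against 0 µM, 50 µM alone gave 45 genes higher (0.356%) and 55 lower (0.435%), 0.791% in all. From 50 to 100 µM, 1663 genes were higher (13.2%) and 1510 lower (12%). Among the genes that rose by 100 µM, the median share of the log2 change already present at 50 µM was 29.7% (quartiles 17.8% and 42.7%), and 1945 of the 2314 lay on the untreated side of the midpoint. For the genes that fell, the median share was 19.0% (quartiles -0.242% and 40.3%), and 1612 of the 1965 lay on the untreated side. On the scale of FPKM itself the medians were 26.7% and 21.1%. With the authors' library factor removed, which was lower in every 100 µM library than in the others, the log2 medians among the genes called in that fit were 34.9% and 16.3%. In this balanced design the midpoint contrast is uncorrelated with the 100 minus 0 contrast, so choosing genes by the latter does not of itself push 50 µM to either side.

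**Figure D1:**
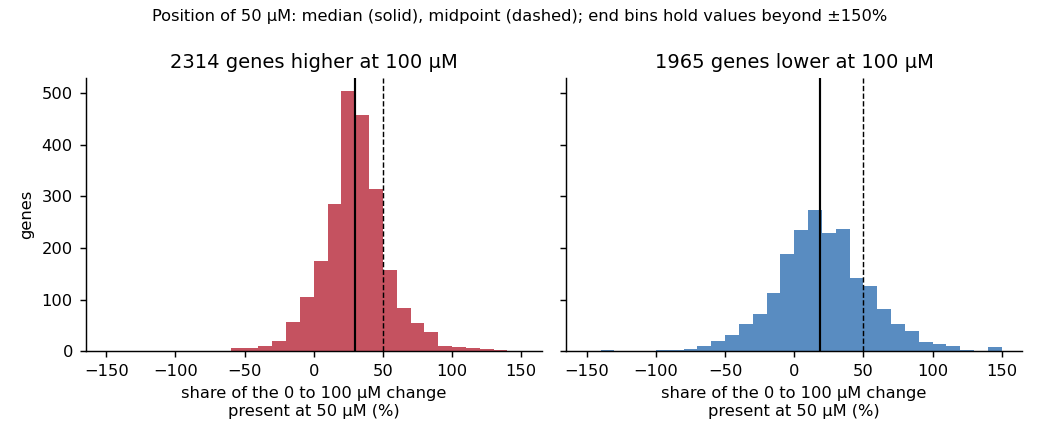
Histograms of the share of the 0 to 100 µM change (log2 scale, in %) present at 50 µM, for the 2314 genes higher at 100 µM (left) and the 1965 lower (right); the y axis counts genes. The medians (solid lines, 29.7% and 19.0%) lie left of the midpoint (dashed, 50%), and the lower genes reach further to the left, past 0.

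A smaller set was called off the midpoint itself. In limma, 125 genes lay above it (0.989% of those tested) and 63 below it (0.499%), 188 in all (1.49%), and 173 of the 188 were protein-coding. At an unadjusted p under 0.05 the counts were 1220 above (9.66%) and 1061 below (8.4%). The smallest adjusted p was 0.0245, so none of the calls was far inside the threshold. Just inside it were Rilp at -0.27, Lox at 0.23 and Acaa2 at -0.20 on the log2 scale. The nearest genes outside were Ephx1 at 0.24, Sdc4 at 0.20 and Kif20b at 0.40. The excess of genes above the midpoint depended on scaling and scale: 66.5% of called genes were above it as deposited, 83.1% (266 and 54) after rescaling to a common sum, 83.2% (262 and 53) with the authors' library factor removed, 55.7% (425 and 338) by voom on the rebuilt reads and 49.5% (90 and 92) with the midpoint taken between FPKM means. The count of 188 also moved when 1 library was left out, and why was not tested. It fell to 0 without replicate 1 or without replicate 3 at 0 µM, to 46 without replicate 2 at 0 µM, to 1 and 3 without replicates 2 and 3 at 50 µM, and to 6 and 1 without replicates 2 and 3 at 100 µM. It was 137 and 149 without replicate 1 at 50 µM and at 100 µM. All 188 genes kept their sign, and an unadjusted p under 0.05, in each of these fits. The 188 were chosen from these same libraries, so that outcome was close to fixed and is no separate support.

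The 188 genes fell into a few shapes. Of the 125 above the midpoint, 118 were lower at 100 µM than at 0 µM, 7 were not called between those doses and 0 were higher. Of the 63 below it, 31 were higher at 100 µM, 26 were not called and 6 were lower. In 50 genes the 50 µM mean lay between the other means, nearer to 0 µM, so that most of the change came above 50 µM (33 falling and 17 rising genes). Among genes whose 50 µM mean lay between the other means, 0 were called nearer to 100 µM by limma on FPKM, against 20 at an unadjusted p under 0.05 and 5 by voom, the limma fit on rebuilt reads. In the other 138, the 50 µM mean lay outside the range of the 0 and 100 µM means: 92 above and 46 below. That placement rests on the order of the means alone. Between 0 and 50 µM, 0 of the 125 and 17 of the 63 were called, against 0.791% of genes tested. At an unadjusted p under 0.05, 36 of the 125 were higher and 38 of the 63 lower at 50 µM. Of the 125, 40 had all 3 of the 50 µM libraries above the 6 others, against 207 of all genes tested (1.64%). Of the 63, 36 had them below the 6 others, against 171 (1.35%). These counts use the values that made the calls and describe the called genes only.

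**Figure D2:**
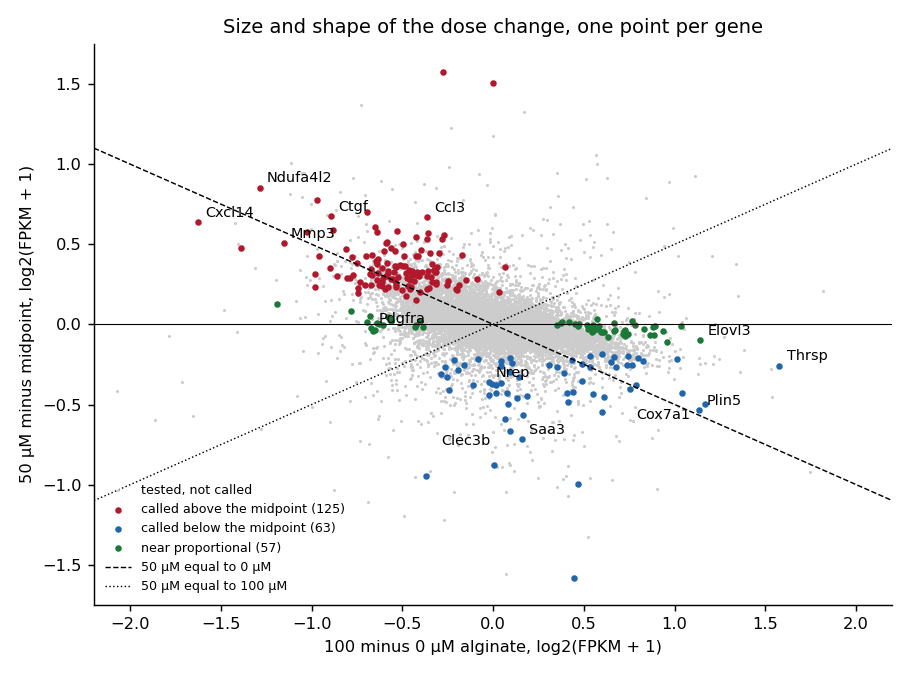
Each point is 1 of the genes tested, with the 100 minus 0 µM difference on the x axis and the distance of 50 µM from the midpoint on the y axis, both in log2(FPKM + 1). Genes called above the midpoint (red, 125) sit mostly at upper left along the line where 50 µM equals 0 µM (dashed), and those called below (blue, 63) run from that line at lower right to the centre, where 0 and 100 µM are alike; green marks the 57 near-proportional genes.

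**Figure D3:**
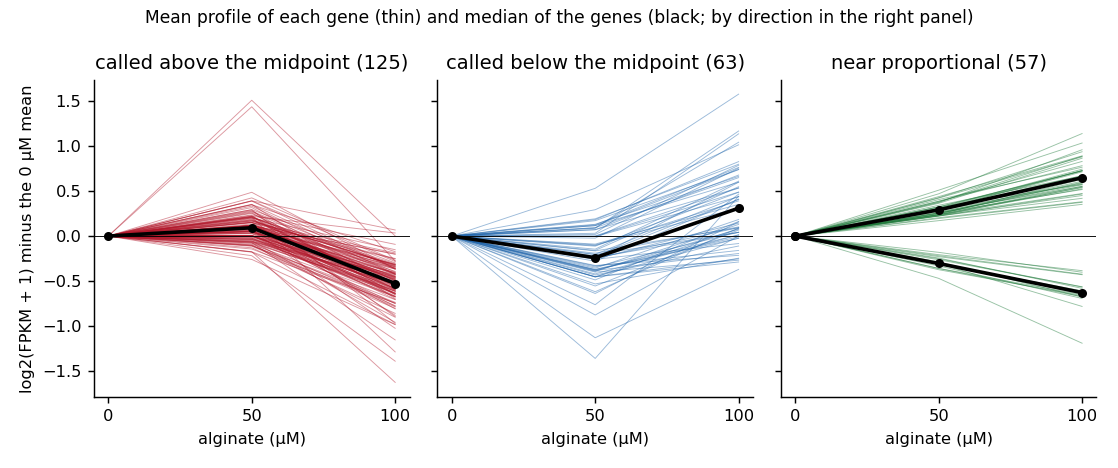
Mean profile of each gene relative to its 0 µM mean, in log2(FPKM + 1), against dose, with group medians in black. The median of the genes above the midpoint is 0.09 at 50 µM and -0.53 at 100 µM, that of the genes below is -0.24 and 0.31, and the near-proportional genes reach 0.29 and 0.65 (rising) or -0.30 and -0.63 (falling).

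Among genes called lower at 100 µM and above the midpoint, the targets of the mechanosensitive coactivator YAP and the actin cytoskeleton stood together. Ctgf (chr10:23273404-23276645 on the plus strand of the C57BL/6NJ assembly), a secreted matricellular protein and a classical YAP target, was at 65.4, 81.2 and 80.5 FPKM at 0 µM, 77.4, 88.1 and 102 at 50 µM and 39.6, 41.2 and 39.4 at 100 µM. The 100 µM libraries were below the 6 others, which overlapped. Its 50 µM mean was 0.68 ± 0.0913 (SE, log2) above the midpoint (limma, adjusted p = 0.0245). Cyr61, a relative of Ctgf that is also induced by YAP, ran at 398, 444 and 416 FPKM, then 387, 437 and 467, then 271, 289 and 281, and lay 0.32 above the midpoint (limma, adjusted p = 0.0448). In both genes the 0 and 50 µM libraries overlapped and every 100 µM library was lower. Actn1, which crosslinks actin filaments, was at 39.7, 44.3 and 43.9 FPKM, then 39.0, 42.8 and 44.2, then 27.7, 25.6 and 26.1. Axl, a receptor tyrosine kinase, Tpm4, a tropomyosin of stress fibres, and Cald1, which binds actin and tropomyosin, lay 0.26, 0.31 and 0.24 above the midpoint. In the list of actin and YAP genes, 6 of 30 tested members were called above and 0 below (13 and 0 by voom, and 22 and 0 at an unadjusted p under 0.05), 28 of 30 had a positive distance, and the median distance was 0.15, against -0.0025 over all genes tested. Vcl and Wwtr1 were the members with a negative distance. Over all 12635 genes tested, voom called 425 above and 338 below the midpoint. At an unadjusted p under 0.05, 9.66% lay above and 8.4% below. Of the 30 actin and YAP genes, 24 were lower at 100 µM. Among all 1965 genes lower at 100 µM, 6.01% were called on the untreated side of the midpoint. Of those that fell by 0.5 to 1 on the log2 scale it was 16.5%, and of all 2314 rising genes 1.34%. The median share present at 50 µM was 4.69% for list members called at 100 µM, against 19.0% over all falling genes. The counts of each list here and below are to be read against all of these values. The fibronectin receptor subunit Itga5, named after its values were seen, gave 73.0, 80.3 and 74.6 FPKM at 0 µM, 74.8, 83.9 and 84.0 at 50 µM and 47.8, 48.8 and 48.7 at 100 µM.

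Matrix and signalling genes shared this shape in part. Of 38 tested genes of Wnt, TGF-beta and BMP signalling, 6 were called above the midpoint and 0 below (8 and 0 by voom, 13 and 2 at an unadjusted p under 0.05), among them Ctgf and Cyr61 again, Wisp2, Ccnd1 and the Wnt receptor Fzd1. Wisp2, a secreted protein of the Ctgf family made by adipose precursors, was at 115, 125 and 124 FPKM at 0 µM, 110, 110 and 117 at 50 µM and 71.7, 66.1 and 69.6 at 100 µM. Only 14.0% of its log2 change was present at 50 µM. Among 43 genes of matrix glycoproteins and remodelling, 5 were called above the midpoint and 2 below (14 and 7 by voom). Mmp3, a stromal metalloproteinase, was at 88.6, 91.5 and 87.5 FPKM, then 76.4, 87.4 and 91.5, then 43.0, 40.5 and 35.4, and lay 0.51 ± 0.0702 above (limma, adjusted p = 0.0245). The elastic fibre genes Fbln5 and Mfap5 lay 0.35 and 0.29 above, and the collagen and elastin crosslinking enzymes Loxl2 and Lox lay 0.25 and 0.23 above. For Lox, 26.4% of the change was present at 50 µM, with 403, 370 and 399 FPKM at 0 µM, 324, 317 and 338 at 50 µM and 208, 189 and 194 at 100 µM; its 3 doses did not overlap. Col12a1, a fibril-associated collagen, was the 1 gene called by limma on FPKM among 19 collagens (2 above and 1 below by voom), 0.31 above the midpoint with 18.2% of its change at 50 µM. Postn and Mmp2, the matrix members below the midpoint, belong to the genes low at 50 µM described further on. Anxa3, listed among progenitor markers, lay 0.43 above the midpoint. Of the 16 tested members of that list, 2 were called above and 1 below (5 and 1 by voom). In it 12 had a positive distance, and the median was 0.07.

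**Figure D4:**
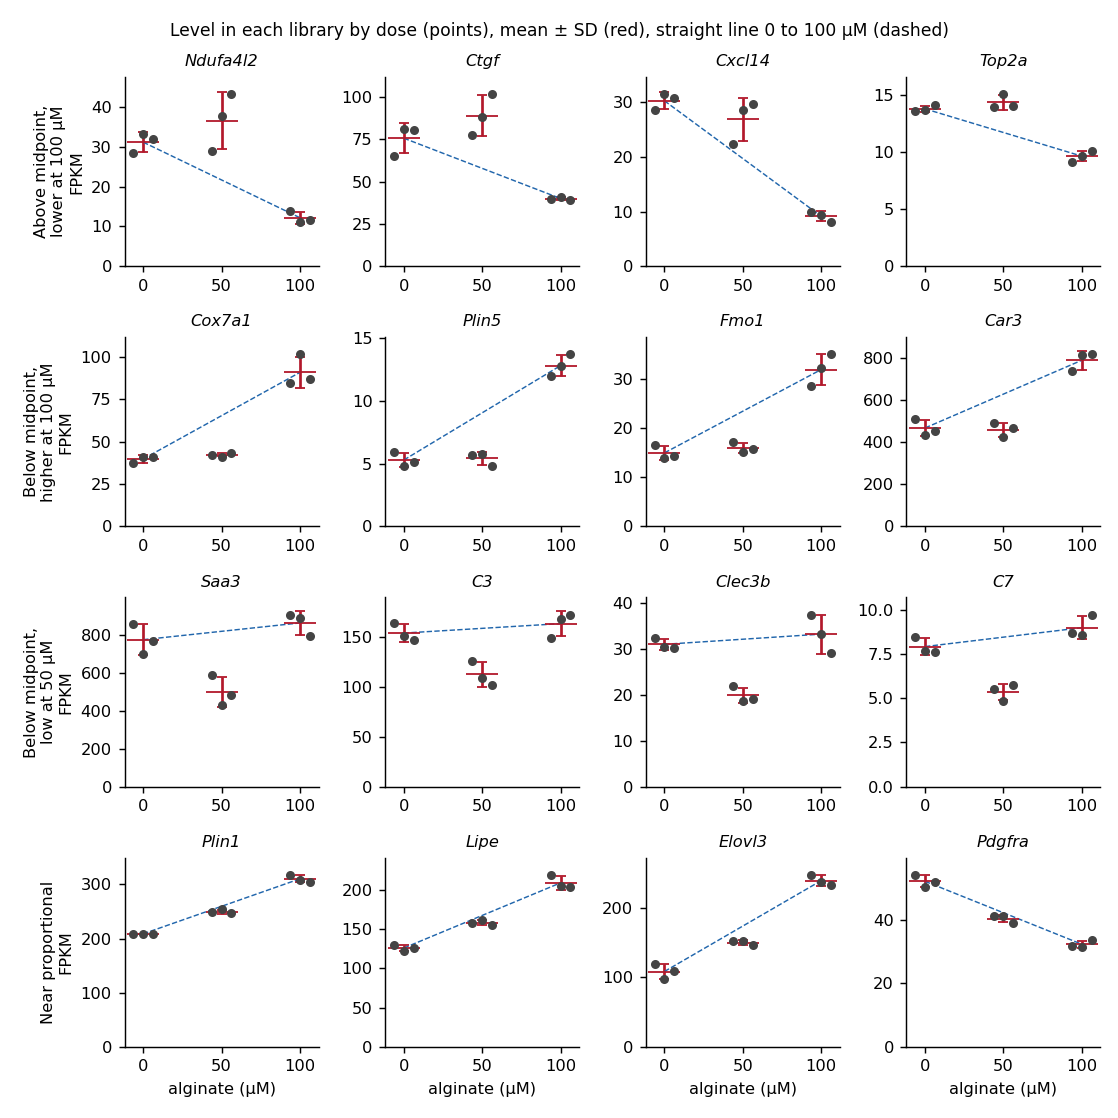
FPKM of each library (points), mean ± SD (red, n = 3) and the straight line between the 0 and 100 µM means (dashed) for 16 genes; the line is on the FPKM scale, the test on log2. In the top row the 50 µM points lie around the 0 µM level, well above the line; in the next row around it and below the line; in the third row below both ends; in the bottom row close to the line.

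The largest distance above the midpoint among protein-coding genes of at least 5 FPKM was that of Ndufa4l2 (chr10:135576184-135578397, plus strand, C57BL/6NJ), a hypoxia-induced mitochondrial protein. Its libraries gave 28.4, 33.1 and 32.0 FPKM at 0 µM, 28.8, 37.7 and 43.2 at 50 µM and 13.9, 11.2 and 11.5 at 100 µM. The 50 µM libraries spread widely and overlapped those at 0 µM, while all 3 at 100 µM were below the rest, at a distance of 0.85 ± 0.118 (limma, adjusted p = 0.0245). Replicate 1 was the lowest 50 µM library here and also for Ctgf, Aqp1, Emp1, Pf4 and Ccnd1, though not for Ccl3. For Saa3, Clec3b and C3, below the midpoint, it was the highest, though not for C7. Slc16a3, the lactate exporter MCT4, lay 0.47 above the midpoint, and these were the 2 members called by limma on FPKM among 27 tested genes of glycolysis and hypoxia. Voom called 4 above and 2 below in that list, and 9 and 2 passed an unadjusted p under 0.05. Over all 12635 genes these counts were 425 and 338 by voom, and 1220 (9.66%) and 1061 (8.4%) at an unadjusted p under 0.05. Aqp1, a water channel, lay 0.78 above, Emp1, a membrane protein of growing cells, 0.59, and Krt19, a keratin that marks mesothelium and epithelium, 0.70. Krt19 was at 4.35, 6.80 and 5.07 FPKM, then 6.40, 6.81 and 8.13, then 2.62, 3.25 and 2.88. Beside it, the summed markers of mesothelial and epithelial cells were between 7.17 and 9.85 FPKM at 0 µM, between 8.70 and 11.9 at 50 µM and between 4.41 and 5.23 at 100 µM. In that list 11 of 13 found members were under 1 FPKM in every library, and the part of such cells in the value of Krt19 was not tested.

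The acute-phase, complement and inflammation list had 4 of 34 tested members called above the midpoint, all lower at 100 µM, and 3 called below it that are described further on (7 and 8 by voom). Cxcl14, a chemokine, was at 28.5, 31.4 and 30.8 FPKM at 0 µM, 22.4, 28.4 and 29.6 at 50 µM and 9.90, 9.41 and 8.10 at 100 µM, a fall by 1.63 on the log2 scale of which 10.7% was present at 50 µM. Cxcl5, a neutrophil chemokine, fell by 1.39 by 100 µM with 15.7% present at 50 µM. Csf1, the growth factor of macrophages, gave 131, 141 and 135 FPKM, then 130, 138 and 140, then 91.0, 84.4 and 85.8, so its first 2 doses overlapped fully and all 100 µM libraries were lower. Icam1, an adhesion receptor for leukocytes, lay 0.27 above the midpoint, with 50 µM at the 0 µM mean. Immediate early genes gave 0 calls among 26 in limma, though 14 lay above and 2 below at an unadjusted p under 0.05 and voom called 3 and 1. Among these, Fos was 0.33 above the midpoint with an adjusted p of 0.0547 in limma.

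Cell cycle genes had the highest median distance of the lists with at least 5 tested members. Of 38 tested, 7 were called above the midpoint and 0 below (22 and 0 by voom, 28 and 0 at an unadjusted p under 0.05), 37 had a positive distance, and the median was 0.27 (0.24 to 0.33 over the 19 other settings). Top2a, the DNA topoisomerase of dividing cells, was at 13.6, 13.7 and 14.1 FPKM at 0 µM, 13.9, 15.1 and 14.1 at 50 µM and 9.17, 9.70 and 10.1 at 100 µM. Ccna2, the cyclin of S phase and mitotic entry, was at 9.44, 10.4 and 10.5 FPKM, then 10.2, 11.0 and 11.5, then 7.02, 7.37 and 7.38. For both, the first 2 doses overlapped and every 100 µM library was lower. Rrm2, a subunit of ribonucleotide reductase, gave 33.7, 43.1 and 38.5, then 42.2, 48.7 and 50.9, then 31.6, 31.8 and 29.4 FPKM and lay 0.44 above the midpoint. Ccnd1, the G1 cyclin, lay 0.58 above, and the mitotic genes Tpx2, Cenpe and Plk1 0.36, 0.33 and 0.30. Cdkn2c, an inhibitor of G1 kinases, was the member with a negative distance. Between 0 and 50 µM, 0 of the 38 were called in either direction by limma on FPKM or by voom (6 at an unadjusted p under 0.05), and between 0 and 100 µM 25 were lower and 1 higher.

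Because cell cycle genes move together, the 250 bases before the start of Top2a are shown (RefSeq, GRCm38.p6, chr11:99024190-99024439, minus strand), 5′ to 3′ on the gene's strand. Capitals mark CCAAT boxes (CCAAT, or ATTGG on the other strand) and the cell cycle homology region (TTTGAA, or TTCAAA), and the window held 6 of the former and 2 of the latter.
Top2a: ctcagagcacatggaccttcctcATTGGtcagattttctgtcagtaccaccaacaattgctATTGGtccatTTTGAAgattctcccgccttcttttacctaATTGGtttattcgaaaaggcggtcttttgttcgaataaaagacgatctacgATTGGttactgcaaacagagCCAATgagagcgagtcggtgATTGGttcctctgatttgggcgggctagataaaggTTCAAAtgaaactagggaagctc
Of 32851 RefSeq windows of this length, 33.8% held CCAAT and 16% held TTTGAA on either strand. Windows of genes called above the midpoint (110 windows of 86 of the 125 genes, matched by symbol) held them in 36.4% and 13.6%, and windows of all genes tested in 35% and 10.4%. A match is a string of letters and was not tested as a binding site.

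Macrophage genes were also above the midpoint. All 13 tested markers had a positive distance, with a median of 0.21 (0.17 to 0.24 over the 19 other settings), and 2 were called above and 0 below (6 and 0 by voom, 10 and 0 at an unadjusted p under 0.05). C1qc, a chain of complement C1q made by macrophages, was at 19.3, 21.0 and 20.4 FPKM at 0 µM, 21.7, 22.1 and 24.8 at 50 µM and 16.3, 15.6 and 16.1 at 100 µM. Mpeg1, the pore protein perforin-2, was at 8.26, 8.86 and 9.20, then 10.5, 9.75 and 9.38, then 6.00, 7.33 and 6.56 FPKM. In both genes the 50 µM libraries were above the 6 others and the 100 µM libraries below. Secreted genes that macrophages make in quantity were called as well. Spp1, osteopontin, lay 0.58 above, with 59.1, 62.8 and 56.2 FPKM, then 58.6, 64.2 and 63.3, then 33.3, 29.3 and 24.0. Pf4, a CXC chemokine, lay 0.58 above, and Ccl3, a CC chemokine, 0.67. Ccl6, named after its values were seen, was at 72.2, 80.5 and 79.9 FPKM at 0 µM, 85.9, 86.5 and 94.2 at 50 µM and 51.6, 55.6 and 49.3 at 100 µM, with no overlap between any 2 doses. The scavenger receptors Msr1 and Marco, also named after their values were seen, lay 0.53 and 0.36 above. None of these was called between 0 and 50 µM. The macrophage markers summed to between 282 and 313 FPKM at 0 µM, between 307 and 311 at 50 µM and between 224 and 236 at 100 µM, with Ccr2 at 0 in every library, and whether macrophage number or expression per cell moved was not tested.

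Among genes that rose by 100 µM, Plin5 and Cox7a1 lay furthest below the midpoint of the protein-coding genes with at least 5 FPKM. Cox7a1 (chr7:30094237-30096094, plus strand, C57BL/6NJ), the heart and muscle isoform of a cytochrome c oxidase subunit, also abundant in brown fat, was at 37.3, 40.9 and 41.0 FPKM at 0 µM, 42.3, 41.2 and 43.2 at 50 µM and 84.3, 101 and 86.6 at 100 µM. Its 50 µM libraries were slightly above the untreated ones, and its distance was -0.50 ± 0.0605 (limma, adjusted p = 0.0245) with 7.38% of the rise present at 50 µM. Plin5, a lipid droplet protein that tethers droplets to mitochondria, gave 5.92, 4.80 and 5.12 FPKM, then 5.66, 5.76 and 4.82, then 12.0, 12.7 and 13.7, and lay -0.54 ± 0.0739 from the midpoint (limma, adjusted p = 0.0245). Its untreated and 50 µM libraries overlapped and all 100 µM libraries were higher. Kcnk3, a potassium channel of thermogenic adipocytes, had 16.4% of its rise at 50 µM. Fmo1, a flavin monooxygenase, rose by 1.04 by 100 µM with 8.76% present at 50 µM.

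The oxidation lists leaned the same way with few calls, about as rising genes did as a class. Among members called at 100 µM, the median share present at 50 µM was 27.8% for oxidative phosphorylation. It was 27.7% for the TCA cycle and 25.2% for fatty acid oxidation, against 29.7% over all 2314 rising genes. Of those 2314, 1.34% were called on the untreated side of the midpoint, and 2.81% of those that rose by 0.5 to 1 on the log2 scale. Of 55 oxidative phosphorylation genes, all higher at 100 µM, 2 were called below the midpoint and 0 above (16 and 0 by voom), 29 were below at an unadjusted p under 0.05, and the median distance was -0.13. Cycs, cytochrome c, was the second called member after Cox7a1, with 160, 156 and 149 FPKM at 0 µM, 167, 166 and 176 at 50 µM and 239, 251 and 249 at 100 µM. In mitochondrial fatty acid oxidation, 2 of 21 were called below (11 by voom), Hadh and Acaa2, with a list median of -0.15, and 19.4% and 13.3% of their rises present at 50 µM. Of 22 genes of the TCA cycle and pyruvate entry, 1 was called below (11 by voom), and the list median was -0.14. No member of these 3 lists was called above the midpoint by limma on FPKM or by voom, and 0 lay above at an unadjusted p under 0.05. Outside the lists and named after their values were seen, the mitochondrial genes Letm1 (ion exchange), Clpx (protease chaperone) and Coq8a (coenzyme Q synthesis) lay -0.23, -0.27 and -0.38 from the midpoint.

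Adipocyte genes rose by 100 µM, some called below the midpoint and others classed as near proportional. Whether the shape differed between these genes was not tested. In their marker list the median share of the rise present at 50 µM was 31.7%, against 29.7% over all rising genes. All 19 tested markers of mature white adipocytes were higher at 100 µM, all had a negative distance (median -0.14, between -0.16 and -0.09 over the 19 other settings), and 3 were called below the midpoint (9 by voom). Car3, a carbonic anhydrase abundant in fat, was at 512, 436 and 455 FPKM at 0 µM, 490, 425 and 466 at 50 µM and 738, 813 and 817 at 100 µM, so the 0 and 50 µM libraries overlapped. Thrsp, a regulator of fatty acid synthesis, had the largest rise among genes whose change came mostly above 50 µM: 120, 103 and 110 FPKM, then 165, 157 and 158, then 335, 342 and 319. It was called higher already at 50 µM, by 0.53 (limma, adjusted p = 0.0253), and 33.6% of its rise of 1.58 was present there. Dgat2, which makes triglyceride, had 23.1% at 50 µM. Angptl8, a secreted regulator of lipoprotein lipase, lay -0.43 from the midpoint, with 3.43, 3.25 and 2.72 FPKM, then 2.47, 2.74 and 2.87, then 4.72, 5.71 and 4.72. Ppp1r3c, which targets a phosphatase to glycogen, and Fxyd1, a regulator of the sodium pump, lay -0.45 and -0.48 from it; the 100 µM libraries of both were above the 6 others.

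Pparg itself was not called off the midpoint, and its shape was not resolved. It was at 40.9, 42.1 and 40.7 FPKM at 0 µM, 47.3, 47.5 and 43.8 at 50 µM and 50.6, 55.7 and 57.9 at 100 µM, without overlap of doses and with a distance of -0.04 ± 0.0481 (limma, adjusted p = 0.732). Adipoq, the adipokine adiponectin, lay -0.20 from the midpoint with an adjusted p of 0.0965 in limma, and Fabp4, the fatty acid carrier, -0.14 with one of 0.275. The sign of Fabp4 changed under quantile normalization. Of 28 tested PPAR targets 1 was called below (Plin5) and 0 above (10 and 0 by voom), 16 were below and 0 above at an unadjusted p under 0.05, 2 had a positive distance, and the list median was -0.11. In the list of adipogenic regulators 0 of 25 were called in either direction by limma, with 2 above and 6 below at an unadjusted p under 0.05 and 0 and 2 by voom. Of all 12635 genes, 9.66% lay above and 8.4% below at an unadjusted p under 0.05, and voom called 425 and 338. Among the PPAR targets called at 100 µM, the median share present at 50 µM was 31.4%, against 29.7% over all rising genes. Cebpb, an early adipogenic factor, was at 106, 102 and 111 FPKM, then 111, 132 and 135, then 166, 104 and 93.4, so its 100 µM libraries disagreed and no shape could be read.

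The near-proportional class held 57 genes (40 rising and 17 falling). For these the 95% moderated interval of the distance lay within 25% of the 100 minus 0 difference on both sides. That places 50 µM between 25% and 75% of the change. The class also required that the midpoint contrast was not called, which kept out Thrsp, whose interval lay within that band too. The intervals were not adjusted for the number of genes. The band takes in 29.7%, the median share of all rising genes, and 33 of the 40 rising members lay below the midpoint. Plin1 (chr7:84824473-84843907, minus strand, C57BL/6NJ), the coat protein of large lipid droplets, was at 209 FPKM in all 3 untreated libraries, at 249, 254 and 247 at 50 µM and at 318, 308 and 305 at 100 µM. The 3 doses were well separated, 45.1% of the rise was present at 50 µM, and the distance of -0.03 had an interval of -0.10 to 0.04. Lipe, hormone-sensitive lipase, was at 130, 122 and 127, then 158, 161 and 155, then 220, 205 and 204 FPKM, with an interval of -0.13 to 0.05. Cidec, which fuses lipid droplets, Elovl3, a fatty acid elongase, and Me1, malic enzyme, were in the same class, with distances of -0.06, -0.10 and -0.11. The interval of Me1, -0.21 to -0.0037, excluded the exact midpoint. Among falling genes, the progenitor receptor Pdgfra was at 54.1, 50.3 and 51.7 FPKM, then 41.0, 41.0 and 38.9, then 31.8, 31.4 and 33.6. Fbn1, the microfibril protein fibrillin-1, was at 202, 176 and 183, then 156, 156 and 140, then 123, 111 and 124 FPKM, with an interval of -0.13 to 0.15. Pdpn, a stromal glycoprotein, fell by 1.19 by 100 µM and was at 40.2, 41.5 and 37.8, then 27.3, 26.2 and 32.1, then 17.0, 17.0 and 16.6 FPKM. Apart from Plin1 and Pdgfra, the genes of this class were named after their values were seen. Of the genes called at 100 µM, 4067 had a distance too uncertain to place in any shape.

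By limma on FPKM, 0 genes were called as changing mostly by 50 µM with the 50 µM mean inside the range (20 at an unadjusted p under 0.05, 5 by voom), so the nearest candidates are given as not called by that fit. Lbp, the lipopolysaccharide binding protein, was at 38.8, 36.6 and 36.1 FPKM at 0 µM, 30.4, 26.7 and 28.2 at 50 µM and 28.7, 28.5 and 27.8 at 100 µM. Its 50 and 100 µM libraries overlapped and all were below the untreated ones, with 99.2% of the fall present at 50 µM and a distance of -0.19 (limma, adjusted p = 0.077). Gas6, the ligand of Axl, was at 481, 457 and 439, then 367, 325 and 344, then 362, 340 and 326 FPKM (97.3% at 50 µM). Prg4, lubricin, and Igfbp3, which binds insulin-like growth factors, had 93.3% and 83.9% of their falls at 50 µM. All 4 were called lower at 50 µM than at 0 µM, and voom called all 4 below the midpoint, with adjusted p from 0.0113 to 0.0363. Among rising genes, Cib1, a calcium and integrin binding protein, had 86.3% of its rise at 50 µM, and it was called higher there. Fads3, Eef1akmt1, a protein methyltransferase, and Mbd6 had 84.4% to 89.2% and were not called there. Adjusted p-values of the midpoint distance for these 8 genes ran from 0.077 to 0.289 in limma on FPKM.

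A reversal was called on both sides, from 0 to 50 µM and from 50 to 100 µM, in 11 genes, and all 11 were low at 50 µM. The count was 27 by voom. It was 0 without any 1 of the 0 µM libraries or without replicate 2 at 50 µM, 4 without replicate 3 at 50 µM, and 7 and 6 without replicates 2 and 3 at 100 µM. The acute-phase protein Saa3 (chr7:49373855-49377533, minus strand, C57BL/6NJ), made by adipocytes and stroma in inflammation, was the most abundant, with 858, 698 and 765 FPKM at 0 µM, 586, 431 and 480 at 50 µM and 905, 888 and 791 at 100 µM. Every 50 µM library was below the 6 others, at a distance of -0.72 ± 0.101 (limma, adjusted p = 0.0252), and 50 µM was 0.64 below 0 µM on the log2 scale (limma, adjusted p = 0.0481). Clec3b, tetranectin, was at 32.3, 30.4 and 30.0, then 21.8, 18.7 and 19.0, then 37.4, 33.1 and 28.9 FPKM. Complement C7 was at 8.48, 7.66 and 7.64, then 5.52, 4.87 and 5.73, then 8.70, 8.56 and 9.74. Both had every 50 µM library below the 6 others and were not called between 0 and 100 µM. The remaining reversals were Dpt (dermatopontin, a matrix protein), Ccdc80 (a secreted matrix protein of fat), Srpx, Mmp2 (gelatinase A), Nrep, Ntrk2 (the neurotrophin receptor TrkB), Gm7160 and a gene without a symbol. Nrep had the smallest spread of these, with 12.3, 12.5 and 12.7 FPKM, then 9.59, 9.09 and 9.60, then 12.5, 12.4 and 12.0. For Mmp2 the levels were 168, 164 and 150, then 132, 118 and 120, then 145, 137 and 140 FPKM, and it was also lower at 100 than at 0 µM.

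Other genes had their lowest mean at 50 µM without both sides being called. Complement C3 was at 164, 151 and 147 FPKM at 0 µM, 126, 109 and 101 at 50 µM and 149, 168 and 172 at 100 µM, a distance of -0.50 ± 0.0749 (limma, adjusted p = 0.0276), and its step from 0 to 50 µM had an adjusted p of 0.0542 in limma. Idi1, isopentenyl diphosphate isomerase of cholesterol synthesis, was at 7.09, 7.65 and 8.50, then 5.41, 6.64 and 5.65, then 7.86, 8.38 and 7.76 FPKM, and was the 1 gene called below by limma on FPKM among 25 cholesterol genes (6 by voom, 12 at an unadjusted p under 0.05). Postn, the matricellular protein periostin, was at 277, 275 and 277, then 226, 209 and 225, then 232, 237 and 244 FPKM. Gpx3, secreted glutathione peroxidase, and Ngfr, the p75 neurotrophin receptor, had larger falls at 50 µM (0.40 and 0.45 on the log2 scale) than at 100 µM (0.27 and 0.29). For both, every 50 µM library was below every untreated one. Neither was called from 50 to 100 µM (limma, adjusted p = 0.144 and 0.124), and the 50 and 100 µM libraries of Ngfr overlapped. The antioxidant list thus had 1 called gene on each side by limma on FPKM (2 above and 1 below by voom), with Gclc, of glutathione synthesis, 0.23 above. In the acute-phase and complement list the 4 called above were Csf1, Cxcl5, Cxcl14 and Icam1 and the 3 below Saa3, C3 and C7, so its median of 0.08 averages over genes of both shapes. None of the 11 was high at 50 µM.

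Since Saa3 was the most abundant of the 11 reversals, its 250 bases before the start are shown (RefSeq, GRCm38.p6, chr7:46715677-46715926, minus strand), 5′ to 3′ on the gene's strand, with capitals marking a C/EBP-type string (TTGCNNAA, here on the other strand).
Saa3: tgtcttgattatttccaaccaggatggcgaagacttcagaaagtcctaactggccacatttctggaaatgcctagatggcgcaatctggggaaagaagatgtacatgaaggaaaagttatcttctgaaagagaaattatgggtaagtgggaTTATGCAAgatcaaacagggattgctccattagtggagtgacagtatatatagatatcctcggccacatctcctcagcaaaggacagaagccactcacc
Such a string was in 9.56% of the 32851 windows, in 7.58% of the windows of genes tested, in 11.8% of the windows of genes above the midpoint and in 11.9% of those of genes below it (42 windows of 33 of the 63 genes). An NF-kB-type string was in 17.6% of all windows, 22.7% of the windows of genes tested, 30% of those above and 38.1% of those below. A TEAD-type string (GGAATG) was in 12.6%, 10.5%, 19.1% and 7.14%, and a nuclear receptor half-site (AAGGTCA) in 4.08%, 2.79%, 3.64% and 2.38%. Both strands were searched, and strings of different names may overlap. These shares are descriptions with no test.

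Across the lists with at least 5 tested members, the order of the medians ran from cell cycle, macrophage and actin genes at the top to oxidation, TCA cycle and adipocyte genes at the bottom. Of all genes lower at 100 µM, 1612 of 1965 lay above the midpoint, and of those higher 1945 of 2314 lay below it. The order is to be read with the direction of change of each list. Endothelial markers had a median of 0.10 with 0 of 16 called in either direction by limma 7 above at an unadjusted p under 0.05 and 2 by voom. Their sum lay between 255 and 283 FPKM at 0 µM, between 254 and 278 at 50 µM and between 215 and 223 at 100 µM, a pattern like that of the actin genes, and its part in them was not tested. Smooth muscle and pericyte markers, which share contractile genes with the actin list, summed to 360 to 403, 360 to 418 and 252 to 274 FPKM. Lymphocyte and erythroid markers were near 0, at most 0.182 and 0.611 FPKM in sum. Several lists held 0 called genes in either direction, among them the 34 cytosolic ribosomal proteins (median 0.04), the 31 mitochondrial ribosomal proteins (-0.07) and the 22 genes of branched-chain amino acid breakdown (-0.12). Of those, 0, 9 and 11 passed an unadjusted p under 0.05 in limma, and voom called 0, 0 and 6. The medians of cytosolic ribosome, collagens, lysosome and proteasome changed sign under at least 1 setting. The lists overlap, and none was compared with other genes by a test.

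**Figure D5:**
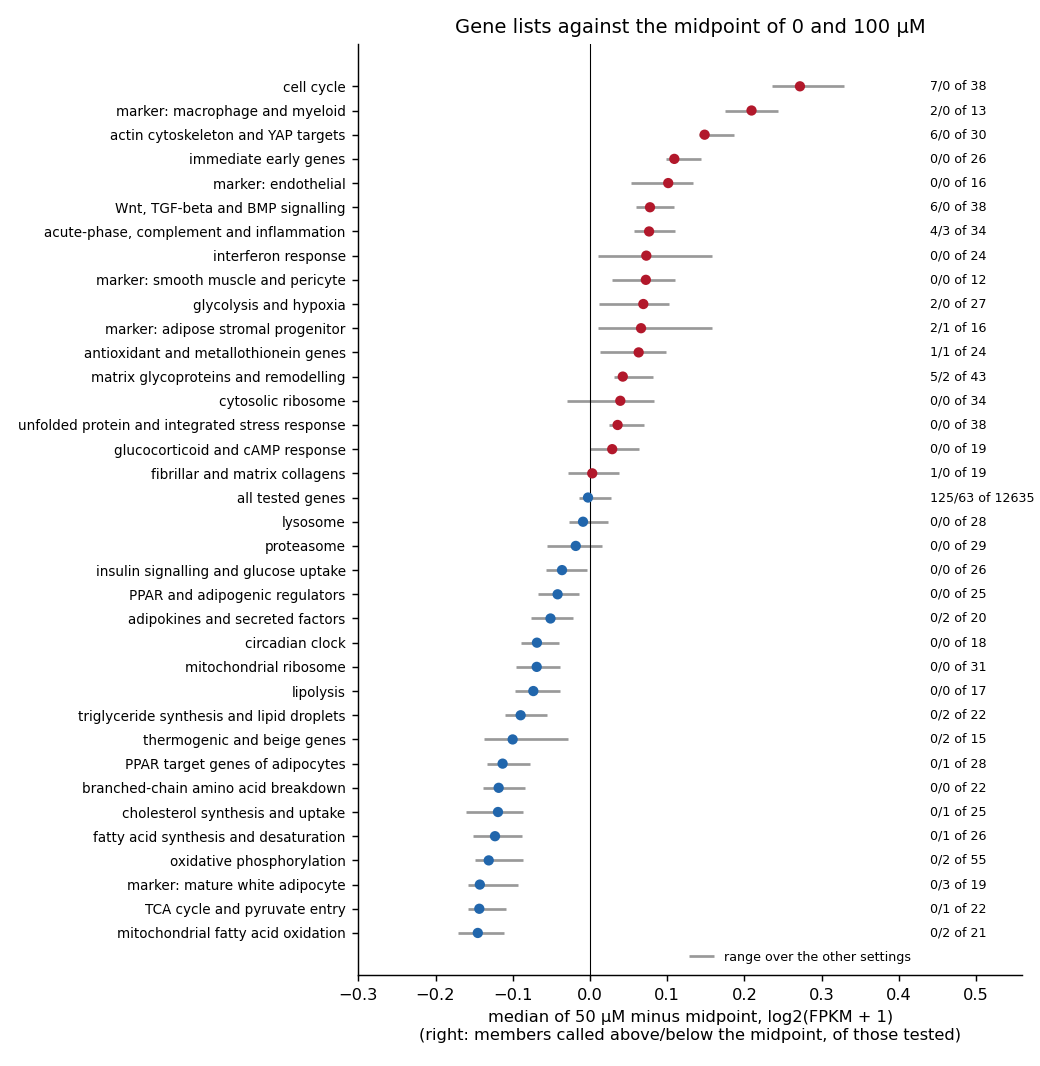
Median distance of 50 µM from the midpoint (x axis, log2(FPKM + 1)) for each gene list with at least 5 tested members, with grey bars for the range over 19 other settings (the midpoint of FPKM means is not among them). Counts at the right give members called above and below the midpoint of those tested, led by 7 and 0 of 38 for cell cycle genes.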

How the data were processed

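The authors deposited 1 table of FPKM values per gene and library. Multiplied by gene length, 100% of the values were whole multiples of 1 number per library within 0.01 read, so reads could be rebuilt, and per the values each library carries a scaling factor of 0.969 to 1.03 times its reads. Aligner and counter: not given in the sources used here. Per the submitters' processing notes the build was GRCm38 (mm10), whereas the table's identifiers come from the C57BL/6NJ assembly. Gene coordinates are the table's own and were not converted. Whether counting used strand is not stated, and reads of overlapping genes or close copies may be mixed.

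Values were taken to log2(FPKM + 1), which understates changes of low genes, and fitted with limma 3.58.1 in R 4.3.3 with 1 mean per dose, all 9 libraries and variances that follow a trend. All tests are two-sided, p-values were adjusted by Benjamini-Hochberg over 12635 genes, and the fit was tested on simulated data. The 40 lists hold 964 genes, of which 924 were found by symbol and 837 were tested.

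The genes and lists were chosen with earlier results of these data known. By rule, named genes were protein-coding, called and at least 5 FPKM at their highest dose: the 10 largest distances on each side, the 4 largest on each side among genes with 50 µM outside the range, the 4 largest changes per direction of the classes mostly above and mostly by 50 µM, up to 3 called members of each list, and 8 fixed genes. Where a class had no called gene, the smallest p-values were taken. Other genes beside these (members of small counts, and those said to be named after their values were seen) were chosen after seeing values. Some results under these rules are not reported here. Alternatives were another pseudocount, filter, scaling, midpoint scale, variance model or block, voom on rebuilt reads and leaving out each library. Promoter windows came from the RefSeq table of GRCm38.p6 and were matched by symbol.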

Additional observations from a re-analysis of the deposited data

How the results depend on the processing

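Every one of the 188 called genes kept its sign in each setting that tested it, but the counts moved. Because the 188 were chosen from the same libraries, the kept signs are no separate support. With no filter on low values, 1 gene was above and 1 below the midpoint (0 mostly above 50 µM, 2 outside the range, 2 reversals). A filter of 5 FPKM gave 97 below, 98 mostly above 50 µM and 21 reversals. Rescaling to a common sum gave 266 above, 97 mostly above 50 µM and 223 outside the range, and removing the authors' factor gave 262 above, 83, 232 and 88 near proportional. Quantile normalization gave 7 reversals and library weights 18. The midpoint of FPKM means gave 90 above and 92 below. Voom on rebuilt reads gave 425 above, 338 below, 319 mostly above, 5 mostly by 50 µM, 439 outside and 27 reversals. A robust fit with no trend gave 37, 18, 9 mostly above, 46 outside and 0 reversals. Leaving out 1 library gave 0 to 94 above, 0 to 55 below, 1867 to 2358 higher and 1496 to 1964 lower at 100 µM, 0 to 121 outside, 0 to 46 mostly above, 0 to 1 mostly by 50 µM, 26 to 69 near proportional and 0 to 15 reversals. Why the counts moved was not tested. The fit without a filter tested 25286 genes and that with a filter of 5 FPKM 7887, and the other settings tested the same 12635.

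Same-numbered libraries did not deviate together (correlations of -0.0941 to 0.0412 over 9 pairs), and pairs with unlike numbers gave -0.0814 to 0.0983. Such correlations cannot exclude a shared culture, animal or batch, so whether the numbers pair the libraries is not settled. With the replicate block 3 genes were above and 4 below (0 mostly above 50 µM, 7 outside, 0 reversals), all among the 188. For named genes, 737 values stayed on their side of the threshold, 510 passed it no longer and 5 newly passed it. The 6 that changed sign were Pdgfra (0.00253 at a common sum, 0.0106 with the factor removed, and -0.0362 to 0.000795 when a library was left out, positive without replicate 3 at 50 µM), Plin1 (0.000532 with quantile normalization, 0.00701 with the factor removed) and Fabp4 (0.0649 with quantile normalization). Depth limits low genes, whose change log2(FPKM + 1) understates.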
